A study of Homo sapiens with 18 samples.

Results

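A set of 8 genes of cellular iron handling, 8 of the 26485 genes listed for each library, were followed in PANC-1 cells through knockdown of PKR, a kinase activated by double-stranded RNA, and through treatment with C16, a small-molecule inhibitor of PKR. They were TFRC and SLC11A2 for uptake, FTH1, FTL and NCOA4 for storage, SLC40A1 for export, and ACO1 and IREB2 for sensing. The genes were chosen with measured values of these data already known, in particular those of TFRC and the ferritins. Their differences between groups are therefore given as descriptions, and no p-value or call from a test is given for them. All 8 were listed in each of the 2 deposited tables, and 7 of them passed the filter, a mean of 10 or more normalized counts over a table's libraries, in each. SLC40A1 did not.

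Cells take up iron mainly as transferrin, which binds the transferrin receptor encoded by TFRC and is carried into endosomes, from where the transporter encoded by SLC11A2 moves iron into the cytosol. Iron that is not used is stored in ferritin, a shell built of heavy chains (FTH1) and light chains (FTL), and NCOA4 carries ferritin to the lysosome for breakdown. The iron regulatory proteins, encoded by ACO1 and IREB2, bind hairpins called iron-responsive elements when iron is scarce, which stabilizes TFRC mRNA through its 3′ UTR and blocks translation of ferritin mRNAs through their 5′ UTR. RNA levels such as those given here therefore show the TFRC side of this control more directly than the ferritin side, where much of it acts on translation.

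PANC-1 is an established human cell line from a pancreatic ductal carcinoma, labelled as epithelial. Poly(A) RNA was sequenced from 18 libraries in 6 groups of 3. In the siRNA run cells were transfected with Control siRNA or with 1 of 2 siRNAs against PKR, PKR siRNA 1 and PKR siRNA 2, and in the C16 run they were kept with DMSO, the solvent, with C16 at 400 nM or with C16 at 800 nM. Cells were collected at 72 h. Nothing in the labels says whether the 3 libraries of a group came from separate cultures, so the SDs and p-values measure the spread between libraries, which may be technical. The run and the kind of treatment changed together and cannot be told apart, so each table of 9 libraries was compared only within itself. Both PKR siRNA groups share the Control siRNA libraries, and both C16 groups share the DMSO libraries. All groups are one cell line, so they describe these cells only.

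EIF2AK2, which encodes PKR and is the target of both siRNAs, held 95.5, 93.5 and 103 normalized counts with Control siRNA, 10.0, 13.6 and 9.65 under PKR siRNA 1 and 7.96, 8.58 and 9.40 under PKR siRNA 2. Against Control siRNA its log2 fold change was -3.04 (SE 0.25, adjusted p = 4.69e-18) for PKR siRNA 1 and -3.35 (SE 0.25, adjusted p = 2.58e-20) for PKR siRNA 2. These p-values, and later ones where no other tool is named, are from limma over all genes of a table, adjusted by Benjamini-Hochberg. With C16 it stood at 45.7, 49.5 and 54.1 in DMSO, 45.7, 39.2 and 42.6 at 400 nM and 51.4, 48.7 and 49.6 at 800 nM, and no difference passed the test. Libraries held 1512940 to 1873906 reads on genes in the siRNA run and 894145 to 1474308 in the C16 run, so genes with few reads are less certain in the C16 run. The epithelial keratins KRT8, KRT18 and KRT19 were high in every library, while KRT7 was low. PTPRC, PECAM1 and DCN, markers of leukocytes, endothelium and fibroblasts, were at 0 in all libraries except for 1 read of PECAM1 in 1 library of PKR siRNA 1.

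Hairpins of the kind that the iron regulatory proteins read are shown first, for the members in which a match was found. UTRs of 19701 canonical protein-coding transcripts of GENCODE release 44 were searched on the mRNA strand for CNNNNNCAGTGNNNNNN with 5 paired bases around the loop, G-T pairs allowed. Such a match was present in 140 transcripts, 0.711% of all, among them 0.0988% of the 5′ UTRs and 0.629% of the 3′ UTRs. TFRC held 4 matches, all in its 3′ UTR, the highest number of any transcript searched. FTH1, FTL and SLC40A1 held 1 each, all in the 5′ UTR, and SLC11A2, IREB2, ACO1 and NCOA4 held none with these letters, which says nothing of other forms of the hairpin. The 7 stretches follow, 5′ to 3′ on the mRNA strand with T for U, and capitals mark the loop.
TFRC a: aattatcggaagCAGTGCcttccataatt
TFRC b: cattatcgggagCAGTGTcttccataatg
TFRC c: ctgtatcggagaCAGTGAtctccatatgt
TFRC d: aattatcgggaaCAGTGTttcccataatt
FTH1: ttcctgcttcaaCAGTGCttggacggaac
FTL: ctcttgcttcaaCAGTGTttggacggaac
SLC40A1: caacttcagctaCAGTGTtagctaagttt
In build hg38 the TFRC stretches, on the minus strand, lie at chr3:196050979-196051007, chr3:196050575-196050603, chr3:196050510-196050538 and chr3:196050463-196050491, in mRNA order. The FTH1 stretch is at chr11:61967574-61967602 on the minus strand, that of FTL at chr19:48965335-48965363 on the plus strand, and that of SLC40A1 at chr2:189580661-189580689 on the minus strand. The sequences were read from the GENCODE transcripts and are identical to hg38 at these positions. A match is a description of letters and not a measured site.

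TFRC (chr3:196049284-196082161, minus strand) took opposite sides of the control with the 2 PKR siRNAs. Its normalized counts were 1504, 1499 and 1578 with Control siRNA, 619.8, 670.3 and 721 under PKR siRNA 1 and 2193, 2226 and 2218 under PKR siRNA 2. All libraries of PKR siRNA 1 lay below, and all of PKR siRNA 2 above, every control library. Group means were 1527 ± 44.5, 670.3 ± 50.5 and 2212 ± 17.0 (SD, n = 3), so TFRC stood at 0.439 times the control for PKR siRNA 1 and at 1.45 times it for PKR siRNA 2. Its log2 fold changes were -1.19 (SE 0.05) and 0.53 (SE 0.05), and PKR siRNA 2 against PKR siRNA 1 gave 1.72 (SE 0.05). In bulk RNA, fewer cells with the transcript and less of it per cell cannot be told apart.

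With C16, TFRC was higher at each dose. DMSO libraries held 935, 995 and 1014 normalized counts, those at 400 nM 1213, 1181 and 1199 and those at 800 nM 1517, 1462 and 1578. The 3 groups did not overlap, and their order was DMSO, 400 nM, 800 nM. Group means stood at 981 ± 41.5, 1198 ± 16.4 and 1519 ± 58.0 (SD, n = 3). On the log2 scale TFRC was above DMSO by 0.29 (SE 0.058) at 400 nM and 0.63 (SE 0.058) at 800 nM, and the higher dose was above the lower by 0.34 (SE 0.058). The knockdown by PKR siRNA 1 and the inhibitor thus gave TFRC values on opposite sides of their own controls, in tables that were not compared with each other.

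**Figure D1:**
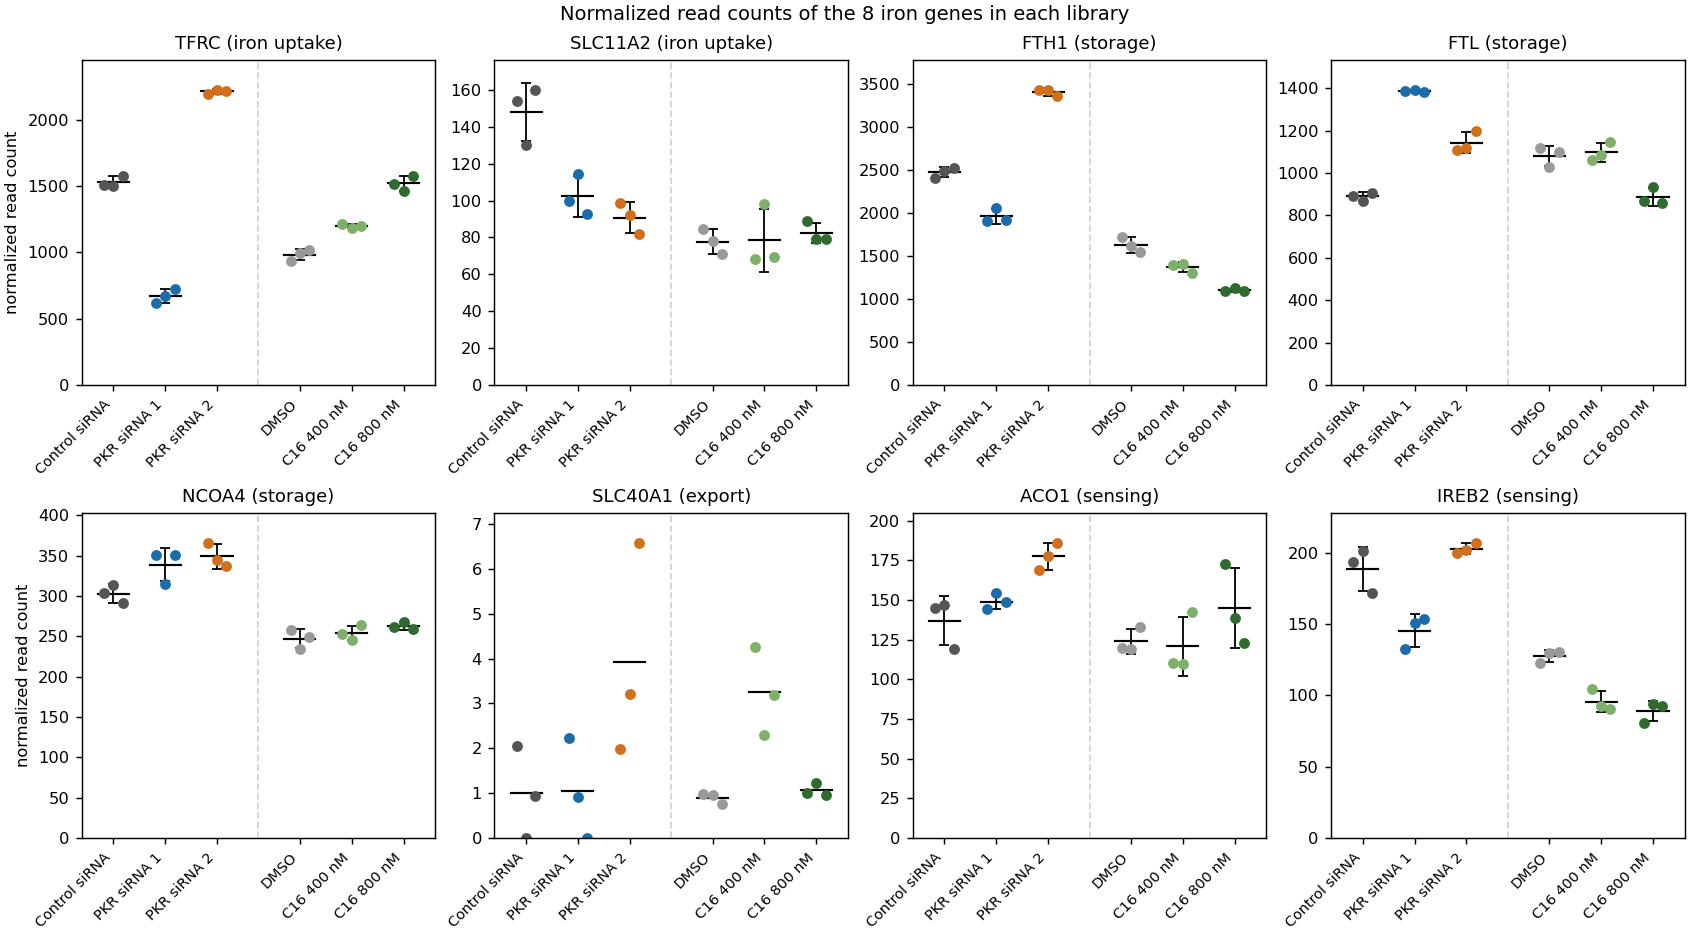
Normalized read counts (y axis, from 0) of the 8 iron genes in each library (points), by group (x axis), with the siRNA run left and the C16 run right of the dashed line; horizontal lines are group means and whiskers the SD of 3 libraries, left out for SLC40A1. TFRC lay between 619.8 and 721 with PKR siRNA 1, below all controls, and between 2193 and 2226 with PKR siRNA 2, above them.

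Genes of proliferating cells, among which TFRC is often counted, did not follow it in the siRNA run. The summed normalized counts of MKI67, TOP2A and CCNB1 ran from 2473 to 2782 in the Control siRNA group. They ran from 3437 to 3597 for PKR siRNA 1 and from 1582 to 1725 for PKR siRNA 2, so the sums were highest where TFRC was lowest. With PKR siRNA 1 the log2 fold changes were 0.68 for MKI67, 0.42 for CCNB1 and 0.10 for TOP2A, the last with an adjusted p of 0.14. Each gene was lower with PKR siRNA 2, at -0.55, -0.43 and -0.88 in the same order. In the C16 run the sums were 1346 to 1633 in DMSO, 1561 to 1762 at 400 nM and 1512 to 1596 at 800 nM and overlapped. The genes did not go together there. At 400 and 800 nM the log2 fold changes were 0.45 and 0.26 for MKI67, 0.20 and 0.17 for CCNB1, and -0.13 and -0.19 for TOP2A. The summed keratins KRT7, KRT8, KRT18 and KRT19 ran from 5238 to 5308 in the control, from 3029.7 to 3259 for PKR siRNA 1 and from 9512 to 10173 for PKR siRNA 2, which is the order of TFRC. KRT8, KRT18 and KRT19 had this order, while KRT7, with few reads, was lower with PKR siRNA 2 than with Control siRNA, by a log2 fold change of -1.86. In the C16 run the keratin sums were 7116 to 7531 in DMSO, 5991 to 6495 at 400 nM and 5117 to 5642 at 800 nM, against the order of TFRC. KRT19 and KRT8 carried this difference, with log2 fold changes at 800 nM of -1.49 and -0.37, and KRT18 stood at 0.0042. The part of either marker list in the values of TFRC was not tested.

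SLC11A2 (chr12:50979783-51028275, minus strand), which moves ferrous iron out of the endosome, was lower with both PKR siRNAs. It held 154, 130.0 and 160.2 normalized counts with Control siRNA, 100, 114 and 92.6 under PKR siRNA 1 and 98.5, 92.2 and 81.8 under PKR siRNA 2. Each PKR siRNA library lay below every control library, and the PKR siRNA groups overlapped each other. Log2 fold changes against the control came to -0.53 (SE 0.12) and -0.70 (SE 0.12). The first of these went past a fold of 1.5 once Control siRNA replicate 2 or PKR siRNA 1 replicate 2 was left out, at -0.62 and -0.61.

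With C16, SLC11A2 overlapped between all groups. Its counts were 84.5, 78.1 and 70.8 in DMSO, 68.1, 98.0 and 69.2 at 400 nM and 88.8, 79.2 and 79.2 at 800 nM. Its log2 fold changes were -0.01 (SE 0.14) and 0.08 (SE 0.14), smaller than their SEs. The uptake receptor and the endosomal transporter therefore shared a side of the control with PKR siRNA 1, stood on different sides with PKR siRNA 2, and with C16 only the groups of TFRC were apart.

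FTH1 (chr11:61964285-61967660, minus strand), the heavy chain that oxidizes iron on its way into the shell, took opposite sides of the control with the 2 PKR siRNAs, as TFRC did. It held 2411, 2484 and 2526 normalized counts with Control siRNA, 1906, 2055 and 1914 under PKR siRNA 1 and 3433, 3425 and 3357 under PKR siRNA 2. The 3 groups did not overlap. The log2 fold changes were -0.34 (SE 0.042) under PKR siRNA 1 and 0.46 (SE 0.042) under PKR siRNA 2, neither past a fold of 1.5, and 0.80 (SE 0.042) between the PKR siRNAs.

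With C16 the side was the other one from TFRC. FTH1 held 1723, 1609 and 1542 normalized counts in DMSO, 1399, 1410.3 and 1304 at 400 nM and 1096, 1132 and 1088 at 800 nM. The groups were again apart, in the order DMSO, 400 nM, 800 nM from high to low. The log2 fold changes were -0.24 (SE 0.058) at 400 nM and -0.55 (SE 0.058) at 800 nM, and the latter went past a fold of 1.5, to -0.59, once DMSO replicate 3 was left out. Of the exon bases of FTH1, 14.6% lie opposite exons of BEST1, and whether counting used strand is not given in the sources used here. BEST1 itself held 0 to 3.22 normalized counts in every library.

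FTL (chr19:48965309-48966879, plus strand), the light chain that supports the iron core, was higher with both PKR siRNAs. It held 892, 868 and 907 normalized counts with Control siRNA, 1386, 1393 and 1381 under PKR siRNA 1 and 1110.0, 1117 and 1199 under PKR siRNA 2. All treated libraries lay above all controls, and those of PKR siRNA 1 lay above those of PKR siRNA 2. Against the control FTL had log2 fold changes of 0.64 (SE 0.051) and 0.36 (SE 0.051). With PKR siRNA 1 the light chain was thus higher while the heavy chain was lower.

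With C16, FTL overlapped the control at the lower dose and lay below it at the higher one. Its counts were 1116, 1029 and 1099.5 in DMSO, 1061, 1083 and 1146 at 400 nM and 866, 936 and 857 at 800 nM. The log2 fold changes were 0.02 (SE 0.061) and -0.29 (SE 0.061). At 800 nM both ferritin chains were below DMSO in 3 of 3 libraries while TFRC was above it. Rows for the ferritin pseudogenes FTH1P18, FTH1P3 and FTLP10 together held at most 2 reads in any library, and how reads that match other ferritin pseudogenes were assigned is not given in the sources used here.

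NCOA4 (chr10:46005088-46030714, minus strand), the receptor for the autophagy of ferritin, differed little. Its normalized counts were 304, 314 and 291 with Control siRNA, 351, 315 and 351 under PKR siRNA 1 and 366, 344 and 337 under PKR siRNA 2. They were 257, 234 and 249 in DMSO, 253, 246 and 264 at 400 nM and 261, 268 and 259.5 at 800 nM. Libraries of both PKR siRNAs and of 800 nM C16 lay above all their controls, by log2 fold changes of 0.16 (SE 0.074), 0.20 (SE 0.074) and 0.09 (SE 0.085), and 400 nM C16 overlapped DMSO.

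SLC40A1 (chr2:189560590-189580811, minus strand) encodes ferroportin, the exporter of cellular iron, and was at or near the floor throughout. The 18 libraries held 0 to 7 reads of it, and it was at 0 in 1 library of Control siRNA and 1 of PKR siRNA 1. Its normalized counts were 1.99, 3.22 and 6.58 with PKR siRNA 2 and 4.25, 2.31 and 3.19 at 400 nM C16. Each of these was the group with the highest mean of its own run. The 400 nM libraries held 2 to 4 reads and lay above those of DMSO, which held 1 read each, and PKR siRNA 2 overlapped Control siRNA. With 7 or fewer reads a library, no fold is given for SLC40A1.

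ACO1 (chr9:32384603-32450834, plus strand) encodes iron regulatory protein 1, which is a cytosolic aconitase when it holds an iron-sulfur cluster. It held 145, 147 and 119 normalized counts with Control siRNA, 144, 154 and 149 under PKR siRNA 1 and 169, 178 and 186 under PKR siRNA 2. Only the libraries of PKR siRNA 2 lay apart from the controls, above them, by a log2 fold change of 0.38 (SE 0.1). With C16 the counts were 119.5, 119 and 133 in DMSO, 111, 109.6 and 143 at 400 nM and 172, 139 and 123 at 800 nM, and all groups overlapped.

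IREB2 (chr15:78438176-78501456, plus strand) encodes iron regulatory protein 2, whose protein is degraded when iron is plentiful. It held 193, 201 and 172 normalized counts with Control siRNA, 132, 151 and 153 under PKR siRNA 1 and 199.9, 202 and 207 under PKR siRNA 2. Libraries of PKR siRNA 1 lay below all controls, with a log2 fold change of -0.37 (SE 0.094), and those of PKR siRNA 2 overlapped the controls. With C16 the counts were 122, 129.5 and 130.2 in DMSO, 104, 92.3 and 90.4 at 400 nM and 80.7, 93.8 and 92.6 at 800 nM. Both doses lay below DMSO, with log2 fold changes of -0.41 (SE 0.12) and -0.51 (SE 0.12), and overlapped each other.

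**Figure D2:**
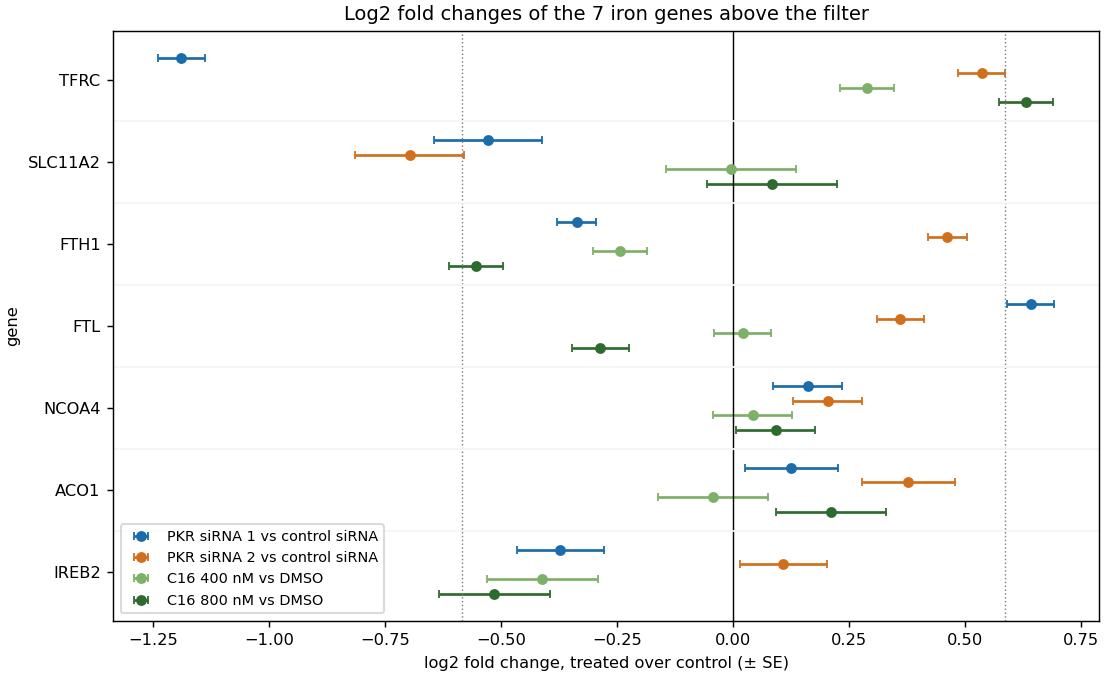
Log2 fold changes (x axis) of 7 iron genes (y axis) in each treatment against its own control, with SE whiskers; dotted lines mark a fold of 1.5 either way. TFRC spans the widest range, from -1.19 with PKR siRNA 1 to 0.63 at 800 nM C16, while NCOA4 stays between 0.04 and 0.20.

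Counted over the 7 genes above the filter, the libraries of a treatment lay wholly above or below those of its control for 6 members with PKR siRNA 1, where this held for 51.7% of all genes tested, and for 6 with PKR siRNA 2, against 54.3%. Between the PKR siRNAs it held for 5, against 60.6%. At 800 nM C16 it held for 5, against 51.8%, at 400 nM for 3, against 39.6%, and between the doses for 3, against 30.4%. Members with a fold over 1.5 were TFRC and FTL with PKR siRNA 1, SLC11A2 with PKR siRNA 2, TFRC and FTH1 between the PKR siRNAs and TFRC at 800 nM. At 400 nM and between the doses no member reached that fold. The shares of all genes tested at that fold also needed an adjusted p under 0.05. For PKR siRNA 1, 8.53% were higher, 12.6% lower. PKR siRNA 2 had 10.8% higher, 12.8% lower. Comparing the PKR siRNAs gave 16.4% higher, 15.3% lower. At 800 nM C16, 11.6% were higher, 14.1% lower. At 400 nM the shares were 7.08% higher, 5.45% lower. Between the doses, 1.13% were higher, 3.95% lower. The median log2 fold change of the members was -0.34 with PKR siRNA 1, 0.36 with PKR siRNA 2, -0.01 at 400 nM and 0.08 at 800 nM, beside medians of all genes tested of -0.0066, -0.011, 0.001 and 0.002. The members were chosen on these contrasts, so nothing is read from these counts.

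TFRC was next set against the ferritins within each library, as the log2 ratio of normalized counts with 1 added to each. Gene length is not in this ratio, so only its differences between groups are read. TFRC over FTH1 was -0.68, -0.73 and -0.68 with Control siRNA, -1.62, -1.62 and -1.41 under PKR siRNA 1 and -0.65, -0.62 and -0.60 under PKR siRNA 2. The ratio differed from the control by -0.85 (SE 0.072) with PKR siRNA 1. With PKR siRNA 2, where both genes were higher, it differed by 0.07 (SE 0.021), with all libraries just above the controls.

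In the C16 run TFRC over FTH1 was -0.88, -0.69 and -0.60 in DMSO, -0.20, -0.26 and -0.12 at 400 nM and 0.47, 0.37 and 0.54 at 800 nM. The groups did not overlap, with differences from DMSO of 0.53 (SE 0.091) and 1.18 (SE 0.095). The ratio differed by more than either gene alone at each dose, which follows by arithmetic from their opposite sides of DMSO.

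TFRC over FTL lay on the same sides of the controls. It was 0.75, 0.79 and 0.80 with Control siRNA, -1.16, -1.05 and -0.94 under PKR siRNA 1 and 0.98, 0.99 and 0.89 under PKR siRNA 2, which are differences of -1.83 (SE 0.066) and 0.17 (SE 0.037) from the control. In the C16 run it differed from DMSO by 0.27 (SE 0.072) at 400 nM and 0.92 (SE 0.093) at 800 nM. The ratio of FTL over FTH1, chains of the same shell, was -1.43, -1.52 and -1.48 with Control siRNA and -0.46, -0.56 and -0.47 with PKR siRNA 1, a difference of 0.98 (SE 0.04). With PKR siRNA 2 it was -1.63, -1.62 and -1.48 and overlapped the control. With C16 it was above DMSO by 0.26 (SE 0.084) at 400 nM and 0.27 (SE 0.055) at 800 nM, with no overlap.

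**Figure D3:**
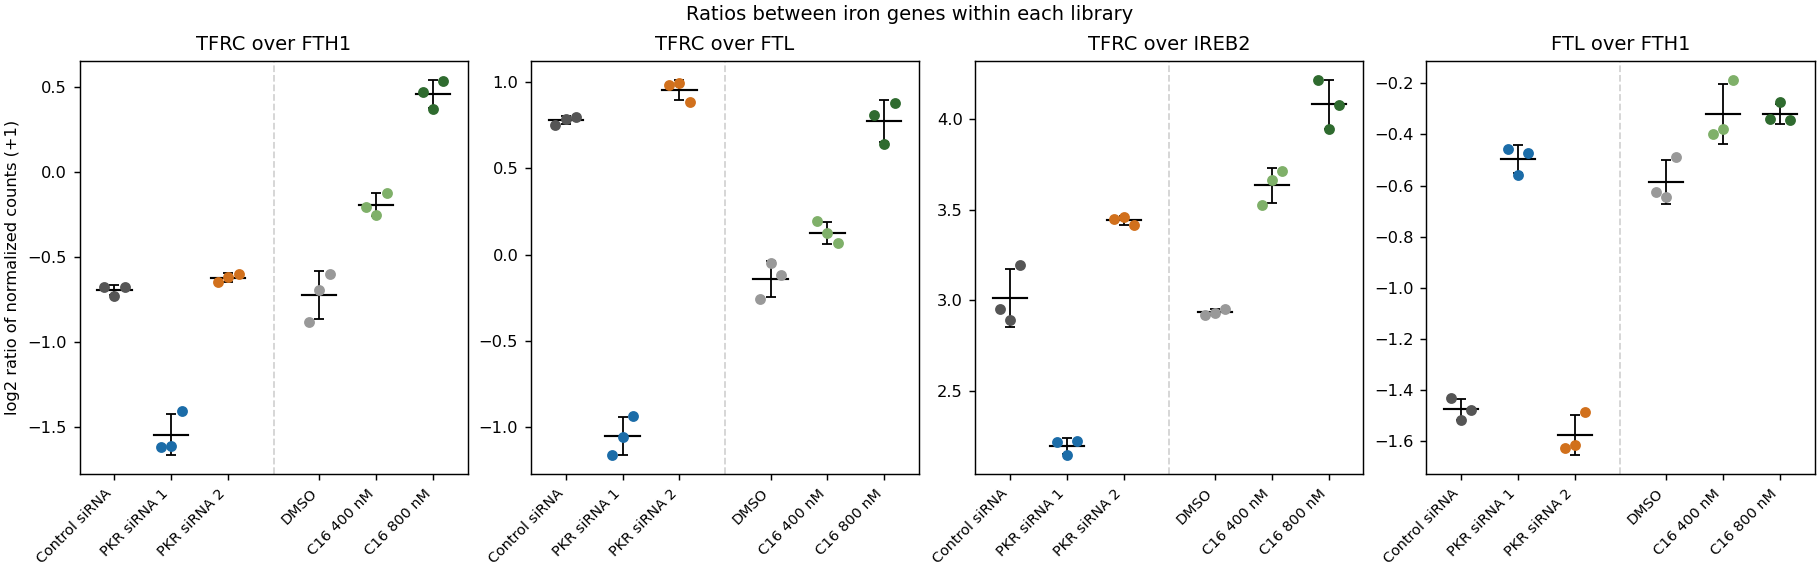
Log2 ratios between iron genes within each library (y axis) by group (x axis), siRNA run left and C16 run right of the dashed line, with group means and SDs of 3 libraries. Within the siRNA run TFRC over FTH1 has its lowest mean, -1.55, with PKR siRNA 1, and within the C16 run its highest, 0.46, at 800 nM.

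Against the iron regulatory proteins, TFRC over IREB2 differed from the control by -0.82 (SE 0.095) under PKR siRNA 1 and 0.43 (SE 0.093) under PKR siRNA 2, and from DMSO by 0.70 (SE 0.056) at 400 nM and 1.14 (SE 0.078) at 800 nM, with no overlap in any of the 4. TFRC over ACO1 differed by -1.31 (SE 0.13) with PKR siRNA 1, 0.33 (SE 0.13) at 400 nM and 0.42 (SE 0.16) at 800 nM without overlap. With PKR siRNA 2 the difference was 0.16 (SE 0.13) and the groups overlapped.

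**Figure D4:**
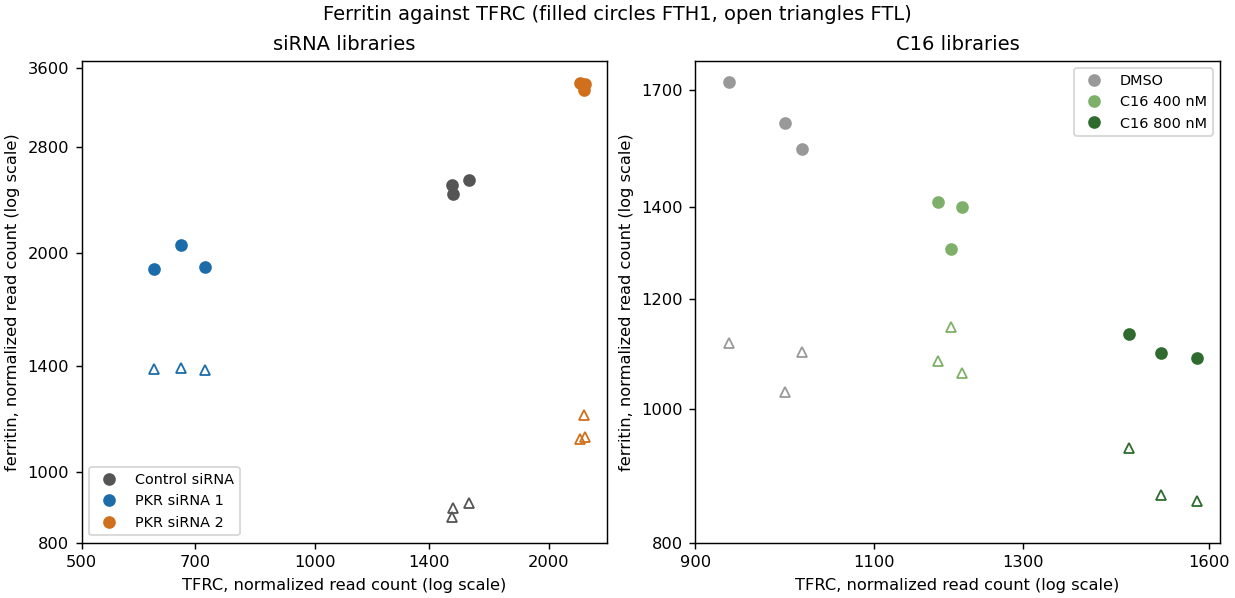
FTH1 (filled circles) and FTL (open triangles) against TFRC in each library, as normalized read counts on log axes, siRNA run left and C16 run right. FTH1 is higher where TFRC is higher in the siRNA run (r = 0.947 over 9 libraries) and lower where TFRC is higher in the C16 run (r = -0.989).

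Over the 9 libraries of a run, Pearson's r of log2 values between TFRC and FTH1 was 0.947 in the siRNA run and -0.989 in the C16 run. For IREB2 the pair of values was 0.937 and -0.847, and for FTL it was -0.611 and -0.830. FTH1 and IREB2 thus had opposite signs in the 2 runs and FTL the same sign. These coefficients rest on 3 groups of libraries that share treatment, library size factors and sequencing run, and are descriptions only.

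Per kilobase of exon, which allows levels of different genes to be compared, the ferritin chains were the most abundant members. With Control siRNA the order was FTH1 at 2013 ± 47.5 normalized counts per kb, FTL at 1021 ± 22.7, TFRC at 288 ± 8.41, NCOA4 at 74.2 ± 2.78, ACO1 at 37.9 ± 4.24, IREB2 at 29.6 ± 2.38, SLC11A2 at 21.8 ± 2.35 and SLC40A1 at 0.298 ± 0.306 (SD, n = 3). Neighbours in this order were separated by more than their SDs. The order was the same in DMSO, where FTH1 stood at 1322 ± 74.3 and FTL at 1242 ± 53.5, closer to each other than the sum of their SDs. With PKR siRNA 1 FTH1 and FTL could not be told apart per kb, at 1594 ± 68.2 and 1592 ± 7.15. With C16 FTL was above FTH1, at 1259 ± 50.4 against 1116 ± 47.3 at 400 nM and 1018 ± 49.5 against 899 ± 19.1 at 800 nM.

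A group of 5 genes had patterns most like that of TFRC. Likeness was the mean of the 2 Pearson coefficients of log2 values, 1 for each run over 9 libraries, among the 5275 genes whose mean reached 50 normalized counts in each table. IFRD1, a transcriptional coregulator, had coefficients of 0.984 and 0.970 with TFRC in the siRNA and C16 runs, FBXO45, a subunit of a ubiquitin ligase, 0.951 and 0.977, TMEM2, a cell surface hyaluronidase, 0.975 and 0.951, C20orf27 0.962 and 0.964 and NAMPT, an enzyme of NAD synthesis, 0.953 and 0.950. Log2 fold changes for PKR siRNA 1 and 2 and for 400 and 800 nM C16 were -0.60, 0.14, 0.39 and 1.00 for IFRD1 and -0.88, 0.77, 0.91 and 1.34 for TMEM2. All 5 were lower with PKR siRNA 1 and higher in the other treatments, a pattern that the choice by likeness to TFRC favours.

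The rest of the iron pathway was followed in 8 lists that hold 79 genes, of which 64 passed the filter in the siRNA run and 63 in the C16 run. Here rose and fell mean past both thresholds, an adjusted p under 0.05 and a fold over 1.5. With PKR siRNA 1, 10 rose and 9 fell, where 8.53% of all genes tested rose and 12.6% fell. With PKR siRNA 2, 9 rose and 4 fell, against 10.8% and 12.8% of all genes. At 400 nM C16 7 rose and 4 fell, against 7.08% and 5.45%, and at 800 nM 10 rose and 7 fell, against 11.6% and 14.1%. The median log2 fold changes of the tested list genes were 0.08, 0.06, 0.08 and 0.04 in the same order. Between 800 and 400 nM CP, which encodes the ferroxidase ceruloplasmin, was the 1 gene of 63 that passed. It was lower at 800 nM, at -1.21 (SE 0.36, adjusted p = 0.0157), where 1.13% of all genes were higher and 3.95% lower. This call of CP was lost with DESeq2, with no filter on low values, and without C16 400 nM replicate 1 or 2 or C16 800 nM replicate 3, and CP did not pass a filter at a mean of 30.

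Heme breakdown and transport was the list with the most genes past the thresholds with PKR siRNA 1. There 5 of its 10 rose and 3 fell, where 8.53% of all genes tested rose and 12.6% fell, and DESeq2 called 7. With PKR siRNA 2, 3 rose and 1 fell, at 400 nM C16 2 rose and 0 fell, and at 800 nM 3 rose and 0 fell. HMOX1, the inducible heme oxygenase that releases iron from heme, rose in all 4 treatments. Its normalized counts were 198, 157 and 191 with Control siRNA, 479, 517 and 419 under PKR siRNA 1 and 523, 493 and 559 under PKR siRNA 2. Its log2 fold change was 1.37 (SE 0.078, adjusted p = 4.47e-26) for PKR siRNA 1 and 1.53 (SE 0.078, adjusted p = 3.53e-29) for PKR siRNA 2. With C16 it was 82.6, 94.3 and 81.5 in DMSO, 212, 196 and 196 at 400 nM and 149, 136 and 156 at 800 nM, with log2 fold changes of 1.22 and 0.77. HMOX1 had no overlap with the controls in any of these, and its rise was known before the lists were drawn up.

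HMOX2, the constitutive heme oxygenase, rose with PKR siRNA 1 by 0.63 (SE 0.1, adjusted p = 4.18e-07), at 400 nM by 0.78 (SE 0.12, adjusted p = 4.06e-07) and at 800 nM by 1.10 (SE 0.12, adjusted p = 1.29e-11) on the log2 scale. With PKR siRNA 2 its value was -0.11 (SE 0.1, adjusted p = 0.421). The rise with PKR siRNA 1 stayed under a fold of 1.5, at 0.57, once Control siRNA replicate 2 was left out, and 5.15% of its exon bases lie opposite NMRAL1. ABCG2 and FLVCR2, transporters of heme or related molecules, fell with PKR siRNA 1, with log2 fold changes of -1.50 (SE 0.12) and -1.45 (SE 0.28), and in the other 3 treatments their libraries overlapped the controls. FLVCR2 held 8, 9 and 12 reads in the libraries of PKR siRNA 1, and 26.0% of its exon bases lie opposite another gene. BLVRA, a biliverdin reductase, fell with PKR siRNA 2, at -0.86 (SE 0.11, adjusted p = 8.17e-11) and with PKR siRNA 1, at -0.61 (SE 0.11), which was -0.54 once Control siRNA replicate 3 was left out, and BLVRB rose with both, though under a fold of 1.5 without Control siRNA replicate 3, at 0.57 and 0.47.

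Members of the heme synthesis list fell and rose with C16. UROS, an enzyme of the pathway, held 97.2, 90.5 and 79.2 normalized counts in DMSO, 61.7, 50.7 and 55.3 at 400 nM and 60.5, 32.9 and 56.3 at 800 nM. It fell at both doses, with log2 fold changes of -0.66 (SE 0.16, adjusted p = 0.00164) and -0.86 (SE 0.16, adjusted p = 1.76e-05). PPOX fell at 800 nM, at -1.78 (SE 0.38, adjusted p = 0.000112) from few reads. At 400 nM its fall of -1.15 (SE 0.38, adjusted p = 0.0185) lost the call with DESeq2 and without DMSO replicate 1 or 2 or C16 400 nM replicate 2, and its rise with PKR siRNA 2, 0.64 (SE 0.26, adjusted p = 0.0355), lost it with DESeq2 and without Control siRNA replicate 1 or PKR siRNA 2 replicate 1 or 2. ALAS1, the enzyme of the first step, rose at both doses, by 0.59, just past the fold of 1.5, and 0.82. The rise at 400 nM was under that fold with edgeR and DESeq2, at 0.57 in each, and without DMSO replicate 1 or C16 400 nM replicate 2, at 0.47 and 0.50. With PKR siRNA 1 the gene that fell was CPOX, at -1.23 (SE 0.22, adjusted p = 2.97e-06), on 16, 19 and 14 reads in the libraries of that group.

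**Figure D5:**
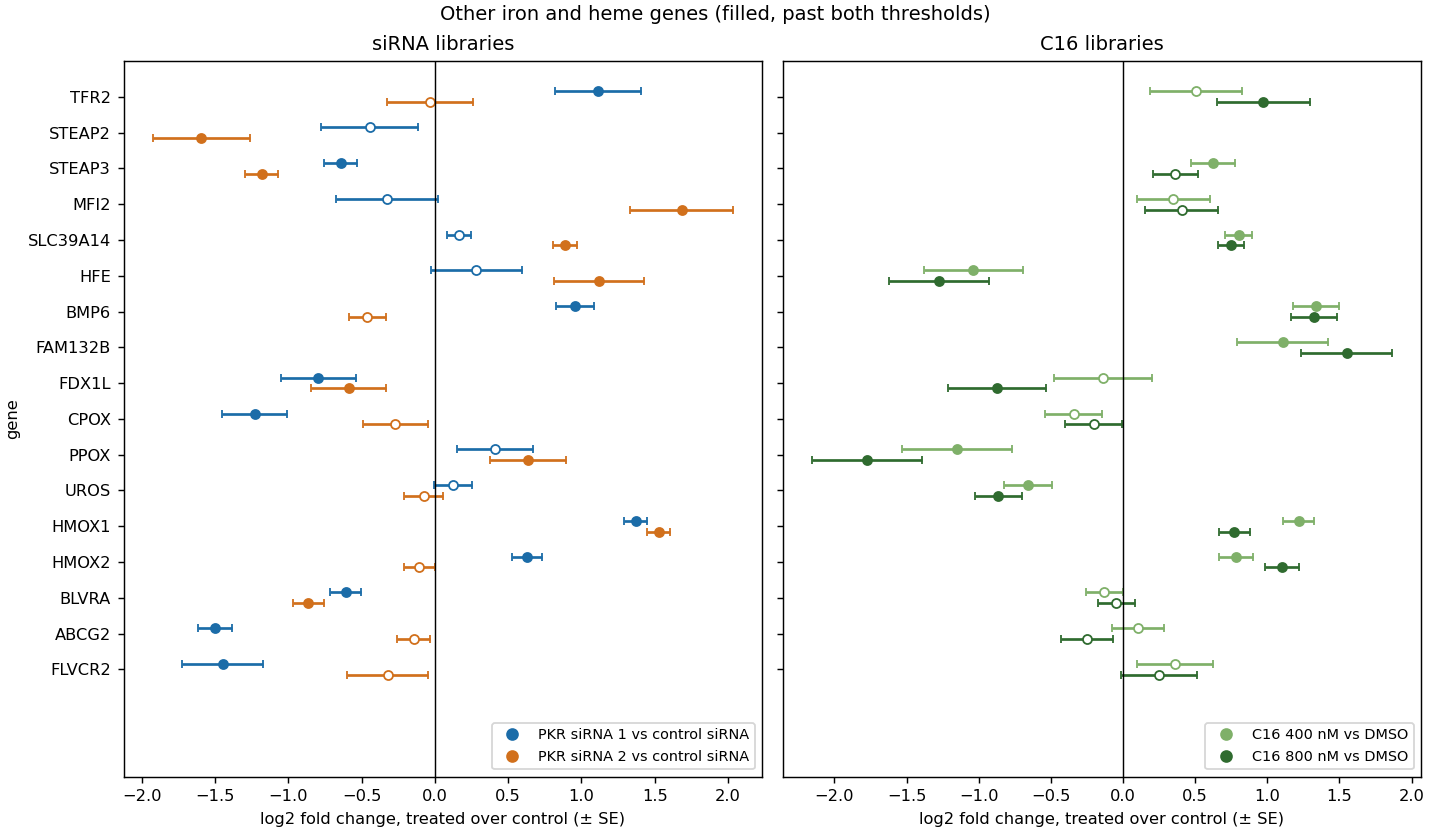
Log2 fold changes (x axis) with SE whiskers of 17 other iron and heme genes (y axis), siRNA run left and C16 run right; filled points are past an adjusted p of 0.05 and a fold of 1.5, and genes under the filter have no point. HMOX1 is filled in all 4 treatments, while HFE and PPOX are filled on the right of 0 with PKR siRNA 2 and on its left with both C16 doses.

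Other genes of uptake and of systemic iron sensing also passed. SLC39A14, an importer of iron and zinc, rose with PKR siRNA 2 and with both C16 doses, by 0.89 (SE 0.083, adjusted p = 2.88e-15), 0.80 (SE 0.092, adjusted p = 2.86e-10) and 0.75 (SE 0.092, adjusted p = 9.74e-10), and its value with PKR siRNA 1 was 0.16 (SE 0.083, adjusted p = 0.104). STEAP3, the reductase that works beside TFRC in the endosome, fell with PKR siRNA 2, at -1.18 (SE 0.11, adjusted p = 3.15e-15), holding 178, 193 and 208 normalized counts with Control siRNA and 86.5, 82.6 and 83.7 with PKR siRNA 2. It also fell with PKR siRNA 1, at -0.64 (SE 0.11), a value of -0.52 without PKR siRNA 1 replicate 1, and rose at 400 nM C16, by 0.62 (SE 0.15), a value of 0.46 without C16 400 nM replicate 1 and 0.56 without DMSO replicate 3. STEAP2, another member of that family, fell with PKR siRNA 2, at -1.59 (SE 0.33), on 4, 6 and 8 reads in the libraries of that group. MFI2, which encodes melanotransferrin, rose with PKR siRNA 2 by 1.68 (SE 0.35), a value of 1.03 without Control siRNA replicate 1. STEAP3 and MFI2 lie opposite antisense genes over 11.5% and 2.93% of their exon bases. TFR2, a relative of TFRC, rose with PKR siRNA 1 by 1.11 (SE 0.29) and at 800 nM by 0.97 (SE 0.32), the latter with an adjusted p of 0.0545 in DESeq2, on at most 33.8 normalized counts in a library.

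BMP6, a ligand that induces hepcidin in the liver, rose with PKR siRNA 1 by 0.96 (SE 0.13, adjusted p = 1.99e-09) and with C16 by 1.34 (SE 0.16, adjusted p = 8.28e-10) at 400 nM and 1.32 (SE 0.16, adjusted p = 4.79e-10) at 800 nM. It held 69.8, 69.8 and 80.6 normalized counts with Control siRNA, 139, 141 and 149.6 under PKR siRNA 1 and 51.7, 53.6 and 53.6 under PKR siRNA 2. In the last group it lay below all controls, at -0.46 (SE 0.13, adjusted p = 0.00212), under a fold of 1.5. FAM132B, which encodes erythroferrone, rose at 400 and 800 nM C16 by 1.11 (SE 0.31) and 1.55 (SE 0.31), the former with an adjusted p of 0.0546 without C16 400 nM replicate 2 and of 0.0747 in DESeq2. HFE, which binds the transferrin receptor protein, rose with PKR siRNA 2 by 1.12 (SE 0.31) and fell at 400 and 800 nM C16, at -1.04 (SE 0.35) and -1.28 (SE 0.35). The fall at 400 nM lost its call with DESeq2 and without DMSO replicate 2 or 3 or C16 400 nM replicate 3, and HFE held at most 25.7 normalized counts. Of the exon bases of BMP6, 15.4% lie opposite TXNDC5.

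Genes that build iron-sulfur clusters, on which the ACO1 protein depends, are next. Of the 18 mitochondrial genes tested in the siRNA table, 2 rose and 3 fell with PKR siRNA 1, and 1 rose and 1 fell with PKR siRNA 2. The gene that rose with PKR siRNA 2 was IBA57, an assembly factor, by 1.02 (SE 0.24, adjusted p = 0.000216), with groups apart. Of 17 tested in the C16 table, IBA57 fell at 400 nM, with overlapping groups, and FDX1L and ISCA2 fell at 800 nM. These C16 calls of IBA57 and ISCA2 were lost with DESeq2 and without any 1 of 4 of the 6 libraries compared. Those were DMSO replicates 1 and 2 and C16 400 nM replicates 2 and 3 for IBA57, and DMSO replicates 2 and 3 and C16 800 nM replicates 1 and 3 for ISCA2. ISCU, the scaffold on which clusters are built, fell with PKR siRNA 1, at -0.88 (SE 0.12, adjusted p = 1.36e-09). FDX1L, a mitochondrial ferredoxin, fell under both PKR siRNAs and under 800 nM C16, at -0.80 (SE 0.25, adjusted p = 0.00749), -0.59 (SE 0.25, adjusted p = 0.0492) and -0.87 (SE 0.34, adjusted p = 0.0313). DESeq2 gave FDX1L adjusted p-values of 0.0504, 0.155 and 0.149 in these 3. The call with PKR siRNA 1 was lost without Control siRNA replicate 2, that with PKR siRNA 2 without any 1 of 5 of its 6 libraries, Control siRNA replicate 1 being the exception, and that at 800 nM without DMSO replicate 2 or 3 or C16 800 nM replicate 1 or 2.

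Of 5 genes that control the iron regulatory proteins, FAM96A, an assembly factor for the cluster of ACO1, fell with PKR siRNA 1, at -0.67 (SE 0.13, adjusted p = 1.18e-05). FBXL5, the ubiquitin ligase subunit that marks the IREB2 protein, had values of 0.12 (SE 0.18, adjusted p = 0.643), 0.17 (SE 0.18, adjusted p = 0.475), -0.48 (SE 0.24, adjusted p = 0.149) and -0.39 (SE 0.24, adjusted p = 0.194) in the 4 treatments. In the other 3 treatments limma called 0 of the 5, with 2 at an unadjusted p under 0.05 in each, and edgeR and DESeq2 on whole reads recovered from the values called 0 too. SKP1 had adjusted p-values of 0.00579, 0.000465 and 0.0161 in these 3, but stayed under a fold of 1.5, at 0.23, -0.39 and -0.25. FAM96A was lower with PKR siRNA 2, at -0.31 (adjusted p = 0.0435), and higher at 800 nM C16, at 0.51 (adjusted p = 0.00179), both under that fold. Of 9 tested genes of cytosolic cluster assembly, GLRX3, a glutaredoxin, rose with PKR siRNA 1 by 0.62 (SE 0.075, adjusted p = 7.74e-11), a value of 0.54 without Control siRNA replicate 2, and at 800 nM by 0.79 (SE 0.089, adjusted p = 6.13e-11), and the others had log2 fold changes within a fold of 1.5 either way in all 4 treatments. Among other mRNAs known for an iron-responsive element, EPAS1 rose with PKR siRNA 2 by 0.92 (SE 0.07, adjusted p = 1.05e-19). Its value with PKR siRNA 1 was 0.55 (SE 0.07, adjusted p = 2.24e-10), on the same side and under a fold of 1.5. The 3 of this list that were tested with C16 had log2 fold changes of 0.10 to 0.40 over both doses.

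Between the 2 PKR siRNAs, 11 of the 64 other iron genes were higher with PKR siRNA 2 and 5 lower, past both thresholds, where 16.4% of all genes tested were higher and 15.3% lower. Among the 11 were ABCG2 at 1.35 (SE 0.12, adjusted p = 2.07e-17), MFI2 at 2.01 (SE 0.35, adjusted p = 8.82e-07) and FLVCR2 at 1.13 (SE 0.28, adjusted p = 0.000347). Lower were BMP6 at -1.42 (SE 0.13, adjusted p = 4.72e-16), GLRX5, a glutaredoxin of cluster transfer, at -0.72 (SE 0.16, adjusted p = 8.25e-05), HMOX2 at -0.73 (SE 0.1, adjusted p = 4.22e-09), STEAP2 at -1.15 (SE 0.33, adjusted p = 0.00215) and TFR2 at -1.15 (SE 0.29, adjusted p = 0.00052). EIF2AK2 differed between these groups by -0.31 (SE 0.25, adjusted p = 0.282). The sequences of the siRNAs differ, and their part in these differences was not tested.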

How the data were processed

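Processed tables of 2 RNA-seq runs of PANC-1 cells, 9 libraries each, were used. Per the labels and the study's methods, the authors aligned reads with TopHat to hg38, counted them per gene with featureCounts and normalized each table with the TMM method in TCC. The deposited values are thus TMM-normalized read counts, a signal per gene. The annotation release, the strand setting and further parameters are not given in the sources used here. Every value was a whole multiple of what 1 read is worth in its library, within a tolerance of 0.01, so whole reads were recovered for all 18 libraries, although the values of 2 libraries could not be told from unscaled reads.

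Values were tested as log2(value + 1), so folds of low genes are understated, with limma 3.58.1 in R 4.3.3 (linear model over the 9 libraries of a table, trended empirical Bayes, genes with a mean of at least 10, Benjamini-Hochberg over all genes tested). A call needs an adjusted p under 0.05 and a fold over 1.5. edgeR 4.0.16 and DESeq2 1.42.0 were run on recovered reads, and other pseudocounts, filters, scalings, sample sets, a replicate block and omission of each library were tried. The fits were tested on simulated data. Replicates differed by more than counting noise in 18 of 18 pairs.

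The members and gene lists were chosen with earlier results of these data known. FTL over FTH1 was added after values were seen. Genes named were the members, EIF2AK2, HMOX1, the 3 largest rises and 3 largest falls of other iron genes per treatment with libraries apart from the controls, those called alike in 3 of 4 treatments, the 5 genes most like TFRC, the ferritin pseudogenes, and listed genes behind a count of 5 or fewer. Of these, 1 gene is not reported here. ABCG2, MFI2 and FLVCR2 between the PKR siRNAs, and ALAS1 and BLVRB, were picked from these or from their lists after values were seen. The study's RNA-seq text names C16 at 800 nM only, while the labels give both doses.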

Additional observations from a re-analysis of the deposited data

Results flagged for a closer look

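For TFRC and FTH1 every library of PKR siRNA 1 lay below, and every library of PKR siRNA 2 above, all Control siRNA libraries. The log2 difference between PKR siRNA 2 and PKR siRNA 1 was 1.72 for TFRC and 0.80 for FTH1. Both genes were chosen on these data, so these differences are descriptions and no test of them is given. BMP6 lay on the opposite sides, above the controls for PKR siRNA 1 and below them for PKR siRNA 2, with a log2 difference of -1.42 between the PKR siRNAs (limma, adjusted p = 4.72e-16), seen in 3 of 3 libraries of each.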

How the results depend on the processing

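Each of the 7 members above the filter kept its log2 difference within the spread of replicates in all alternatives that kept all libraries. The sign held in these for all but SLC11A2 at 400 nM, which ran from -0.022 to 0.0055. Leaving out 1 of 3 libraries moves a group mean by less than the group's SD whatever the values, so that measure could not fail there. Leaving out a library turned the sign of log2 differences near 0, which at 400 nM ran from -0.015 to 0.044 for FTL, -0.18 to 0.084 for SLC11A2 and -0.17 to 0.021 for ACO1, and for NCOA4 between the PKR siRNAs from -0.0097 to 0.069, and for SLC11A2 between the doses from -0.0013 to 0.26. The number of members with a fold over 1.5 at 800 nM ran from 1 to 2, with FTH1 added without DMSO replicate 3. It ran from 2 to 3 with PKR siRNA 1, with SLC11A2 added. With no filter SLC40A1, on 7 or fewer reads a library, entered the fit, and it is left out of these counts. Shares of all genes stand beside the reported counts above. A filter at a mean of 30, which tests fewer genes, gave 8 other iron genes past both thresholds for PKR siRNA 2 (13 as reported), 9 between the PKR siRNAs (16), 7 at 400 nM (11), 10 at 800 nM (17) and 0 between the doses (1). It gave 769 of all genes at 400 nM (1248), 1618 at 800 nM (2561) and 313 between the doses (507). DESeq2 gave 6 other iron genes at 400 nM and 189 of all genes between the doses, and the cause was not tested. Between the doses DESeq2 and the fit without a filter gave 0 other iron genes, edgeR 1, and limma 15 at an unadjusted p under 0.05. That count ran from 0 to 2 when a library was left out, 0 without C16 400 nM replicate 2 and 2 without C16 400 nM replicate 3 or C16 800 nM replicate 2. Libraries with the same replicate number did not deviate together (r from -0.049 to 0.032 over 18 pairs), so the number pairs nothing here. A fit with a replicate block gave 19, 12, 16, 11, 17 and 1 other iron genes in the 6 comparisons and left the log2 fold change of TFRC with PKR siRNA 1 at -1.19. Depth, down to 894145 reads in a C16 library, limits genes of few reads such as SLC40A1, PPOX, HFE, FDX1L, STEAP2, FLVCR2 and CPOX.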
